A study of Homo sapiens with 4 samples.

Results

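The 10 genes described here are TGFBI, BAMBI, ID1, ID2, ID3, SMAD6, SMAD7, SKIL, TGFB1 and TGFBR2, a ligand, a receptor, inhibitors and targets of the transforming growth factor beta (TGF-beta) and bone morphogenetic protein (BMP) pathways. They were taken by gene symbol from tables that list 20226 genes, and all 10 were found. The tables come from RNA sequencing of Huh7, an established human hepatocellular carcinoma cell line, and the study profiled gene expression after knockdown of NUP210, which encodes a membrane glycoprotein of the nuclear pore. There were 2 libraries of knockdown cells (genotype label shNUP210, a short hairpin RNA) and 2 control libraries (shCon in the titles, genotype label wild type), and the labels give all 4 as otherwise untreated. The labels do not say how many hairpin sequences or clones were used, nor whether replicates were grown separately, so every p-value reflects the scatter of these 4 libraries, part or all of which may be technical. Values are TPM, a transcript abundance scaled for transcript length and library total.

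Ligands of the TGF-beta family bind pairs of type II and type I serine/threonine kinase receptors at the cell surface. TGF-beta receptors mainly phosphorylate SMAD2 and SMAD3, and BMP receptors SMAD1, SMAD5 and SMAD9, which enter the nucleus with SMAD4 and act on target promoters. Several of the most direct targets, among them SMAD6, SMAD7, SKIL and BAMBI, are themselves inhibitors of the pathway, and in liver cells BMP signalling is known for its control of hepcidin and TGF-beta signalling for matrix production and growth arrest.

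NUP210, the targeted gene, measured 10.1 and 9.85 TPM after knockdown against 32.8 and 27.3 TPM in shCon (log2 fold change -1.49, limma adjusted p = 0.0432). Read depth is not kept in TPM. Low values of single-transcript genes put 1 fragment at roughly 0.52 to 0.68 TPM on a 1 kb transcript, so counting intervals are not given. All 10 hepatocyte markers were listed, with ALB at 2332 to 2627 TPM, and their summed level was 31805 and 32470 TPM in shNUP210 and 45795 and 47443 TPM in shCon. Of 10 fibroblast or stellate markers 7 were listed, summing to 42.3 and 21.6 TPM in shNUP210 and 14.9 and 17.2 TPM in shCon, with THY1 at 0 in 3 of the 4 libraries and 0 of the 2 tested markers called by limma. COL1A1 (18.9 and 7.55 against 1.25 and 3.80 TPM), COL3A1 and LUM were higher in both shNUP210 libraries than in both shCon libraries, PDGFRA was lower (0.60 and 0.25 against 1.27 and 1.29 TPM), and PDGFRB, RGS5 and THY1 overlapped. The 1 listed endothelial marker of 6, STAB2, was at 0 in 3 libraries. The 2 listed leukocyte markers of 6 summed to 21.3 and 6.3 against 35.2 and 27.4 TPM, and the 3 listed cholangiocyte markers of 4 to 271.3 and 242.6 against 164.4 and 142.7 TPM. Of these 3, KRT19 was higher (192 and 182 against 75.1 and 58.1 TPM, called by limma, adjusted p = 0.0215), EPCAM was lower without a call (19.2 and 16.9 against 32.9 and 32.5 TPM, adjusted p = 0.0917) and SOX9 overlapped between groups. The part of these markers in the results below was not tested, and in bulk RNA fewer cells of a type and less RNA per cell cannot be told apart.

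In the shNUP210 cells TGFBI, TGFBR2, BAMBI and ID3 rose, by 1.66 to 2.66 times in mean TPM. The other 6 genes were 1.23 to 1.99 times the control mean and did not pass the test. None of the 10 fell. The test was limma with a mean-variance trend on log2(TPM + 1), over 10140 genes with at least 5 TPM in at least 2 libraries, and a call is a Benjamini-Hochberg adjusted p under 0.05. All 10 genes passed the filter. Over all genes tested, 2.86% were called in either direction and 1.79% were called higher after knockdown, and that share grew with level, from 0.657% at a mean of 5 to 20 TPM to 6.5% at 500 TPM and above. In each of the 10 genes both shNUP210 libraries lay above both shCon libraries, which was also so for 42.9% of all genes tested. The median log2 fold change of the 10 was 0.80, against 0.23 over all genes tested. The 10 genes were chosen with earlier results of these data known. Their counts and median are thus no independent evidence of a direction. The values of each gene in each library are drawn in the plot of TPM by gene.

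**Figure D1:**
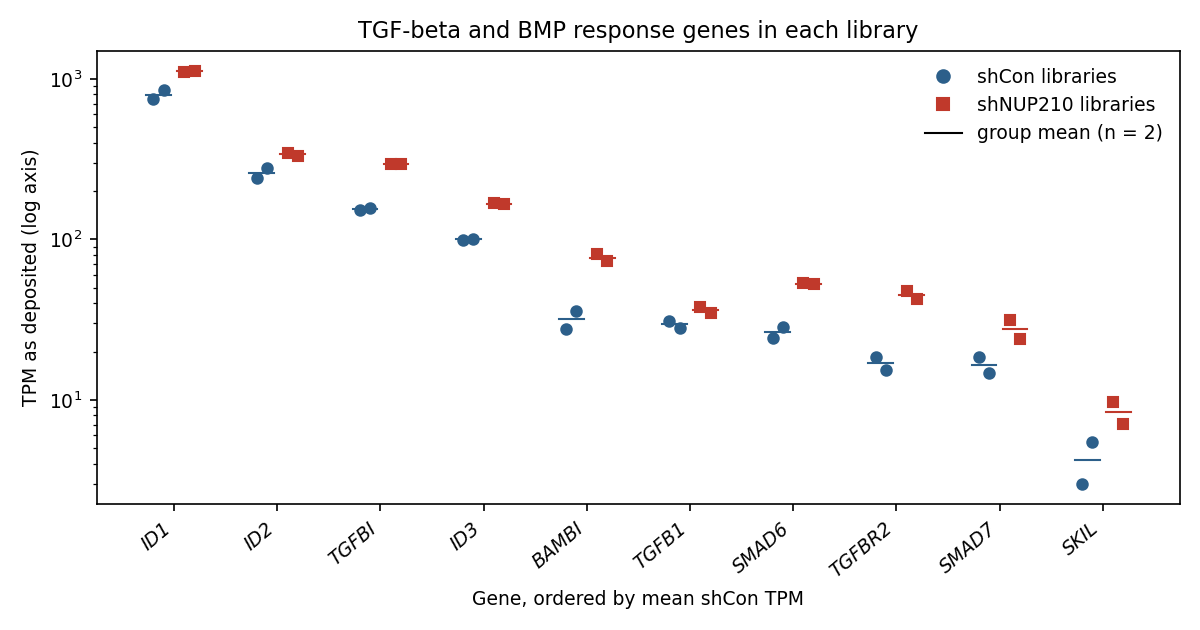
TPM of the 10 genes (log axis) in the 2 shCon libraries (circles) and the 2 shNUP210 libraries (squares), with short lines at the group means and genes ordered by their mean in shCon. ID1 had the highest level and SKIL the lowest, and in every gene both squares lie above both circles.

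The genes spanned a wide range of levels. In the control cells the order ran from ID1 (746 and 849 TPM) through ID2 (243 and 277 TPM), TGFBI (152 and 157 TPM) and ID3 (99.4 and 101 TPM) down to SKIL (3.0 and 5.47 TPM). Between ID3 and SKIL the neighbours were not all separate. BAMBI (27.8 and 35.6 TPM) overlapped TGFB1 (31.2 and 28.1 TPM) and SMAD6 (24.4 and 28.7 TPM), and TGFBR2 (18.5 and 15.4 TPM) overlapped SMAD7 (18.4 and 14.7 TPM). In the knockdown cells BAMBI (81.3 and 72.9 TPM), SMAD6 (53.1 and 52.4 TPM), TGFBR2 (47.7 and 42.5 TPM) and TGFB1 (37.9 and 34.8 TPM) stood in that order without overlap.

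TGFB1 (ENSG00000105329, GRCh38 chromosome 19, 41301587 to 41353911, minus strand) encodes the founding ligand of the TGF-beta family. It was at 37.9 and 34.8 TPM in shNUP210 and 31.2 and 28.1 TPM in shCon. The groups did not overlap, but the gap between the lower shNUP210 and the higher shCon library was close to the spread within each group. The log2 fold change was 0.28 (95% interval -0.17 to 0.74, limma adjusted p = 0.386), near the median of all genes. After trimmed-mean scaling, described below, it was 0.04 and the groups overlapped. TGFB1 shares 215 of its 3238 exon bases with HNRNPUL1 on the opposite strand, and the sources used here do not say whether reads were counted by strand.

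TGFBR2 (ENSG00000163513, chromosome 3, 30606502 to 30694142, plus strand) encodes the type II receptor that binds TGF-beta and starts signalling. Its level was 47.7 and 42.5 TPM in shNUP210 and 18.5 and 15.4 TPM in shCon. Both knockdown libraries were far above both controls, and the ratio of means, 2.66, was the highest of the 10 genes. The mean was 45.1 ± 3.69 against 17.0 ± 2.17 TPM (SD, n = 2), and the log2 fold change was 1.36 (SE 0.21, limma adjusted p = 0.0407). Of all genes tested, 3.5% had a higher log2 fold change.

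BAMBI (ENSG00000095739, chromosome 10, 28677342 to 28682939, plus strand) encodes a transmembrane protein that resembles a type I receptor without the kinase domain and dampens signalling. It was at 81.3 and 72.9 TPM in shNUP210 and 27.8 and 35.6 TPM in shCon. The lower knockdown library was still well above the higher control. The mean was 77.1 ± 5.95 against 31.7 ± 5.56 TPM (SD, n = 2), 2.43 times as high, with a log2 fold change of 1.26 (SE 0.19, limma adjusted p = 0.0403).

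SMAD6 (ENSG00000137834, chromosome 15, 66702228 to 66782848, plus strand) encodes an inhibitory SMAD that acts mostly on BMP receptors and SMAD1. Its level was 53.1 and 52.4 TPM in shNUP210 and 24.4 and 28.7 TPM in shCon. The knockdown libraries nearly coincided, and the wider spread was in the controls. The mean was 1.99 times the control mean, and the log2 fold change of 0.97 (95% interval 0.52 to 1.42) missed the threshold (limma adjusted p = 0.0569).

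SMAD7 (ENSG00000101665, chromosome 18, 48919853 to 48952052, minus strand) encodes the inhibitory SMAD that acts on both branches by blocking and degrading type I receptors. It was at 31.3 and 24.1 TPM in shNUP210 and 18.4 and 14.7 TPM in shCon. The groups were separate, but each had a spread of several TPM. The log2 fold change was 0.70 (95% interval 0.08 to 1.33, limma adjusted p = 0.168).

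SKIL (ENSG00000136603, chromosome 3, 170357678 to 170396835, plus strand) encodes SnoN, a nuclear repressor of SMAD complexes. It was the lowest of the 10, at 9.64 and 7.05 TPM in shNUP210 and 3.0 and 5.47 TPM in shCon. The 2 libraries of either group lay farther apart than the nearest libraries of different groups. The log2 fold change was 0.86 with a wide 95% interval of -0.20 to 1.93 (limma adjusted p = 0.276), so a change of the size seen in BAMBI and no change were both within the interval.

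TGFBI (ENSG00000120708, chromosome 5, 136028895 to 136063818, plus strand) encodes a secreted matrix protein named for its induction by TGF-beta. It was at 294 and 296 TPM in shNUP210 and 152 and 157 TPM in shCon. Replicates of both groups were close together and the groups were widely separate. The mean was 295.1 ± 1.73 against 154.5 ± 3.9 TPM (SD, n = 2), with a log2 fold change of 0.93 (SE 0.10, limma adjusted p = 0.0213), the lowest adjusted p of the 10.

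ID3, ID1 and ID2 encode helix-loop-helix proteins without a DNA-binding region, which hold back basic helix-loop-helix factors and are classic immediate targets of BMP signalling. ID3 (ENSG00000117318, chromosome 1, 23557918 to 23559794, minus strand) was at 168 and 166 TPM in shNUP210 and 99.4 and 101 TPM in shCon. The replicates differed by about 2 TPM in either group. The mean was 166.6 ± 1.43 against 100.3 ± 1.2 TPM (SD, n = 2), with a log2 fold change of 0.73 (SE 0.11, limma adjusted p = 0.0422).

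ID1 (ENSG00000125968, chromosome 20, 31605283 to 31606515, plus strand), the most abundant of the 10, was at 1110.4 and 1113 TPM in shNUP210 and 746 and 849 TPM in shCon. The knockdown libraries were close together and the controls were not. The log2 fold change was 0.48 (95% interval 0.26 to 0.70, limma adjusted p = 0.0544), and 30.9% of all genes tested had a higher one. ID2 (ENSG00000115738, chromosome 2, 8678845 to 8684453, plus strand) was at 345 and 331 TPM in shNUP210 and 243 and 277 TPM in shCon. Its log2 fold change was 0.38 (95% interval 0.11 to 0.65, limma adjusted p = 0.117), and the groups overlapped after trimmed-mean scaling. ID2 shares 38 exon bases with the antisense gene ID2-AS1. The intervals of ID3 and ID1 overlapped, as did those of ID1 and ID2, and the differences between the 3 genes were not tested.

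**Figure D2:**
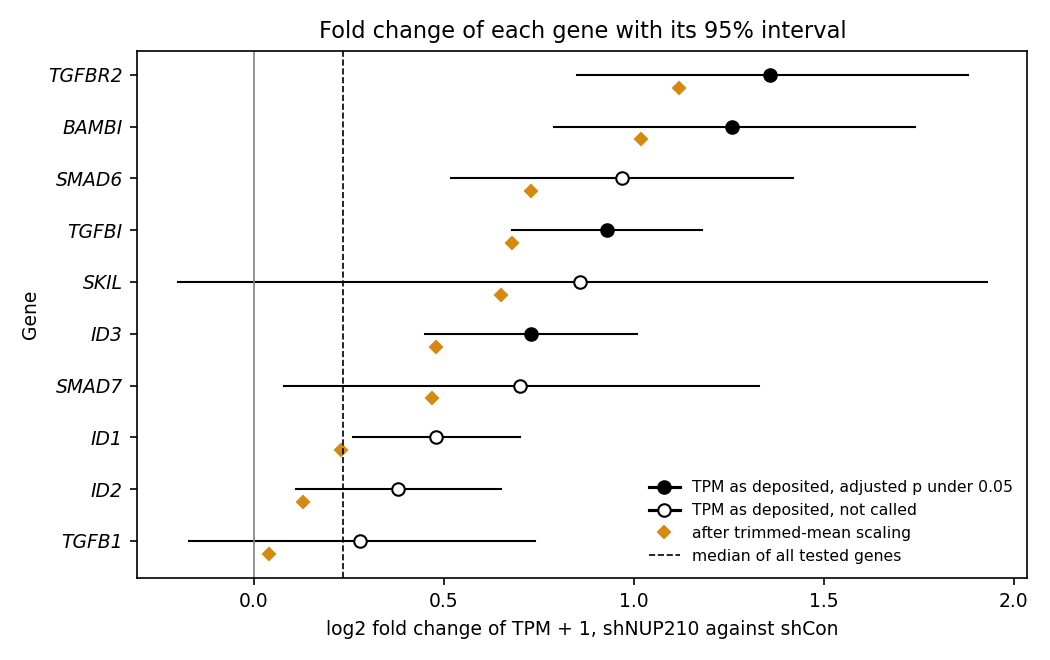
Log2 fold change of TPM + 1, shNUP210 against shCon, for each of the 10 genes with its 95% limma interval (n = 2 against 2), filled where the adjusted p was under 0.05. Diamonds give the same quantity after trimmed-mean scaling and the dashed line is the median of all genes tested, 0.23. The values run from 0.28 for TGFB1 to 1.36 for TGFBR2.

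The size of these changes depends on how libraries are put on one scale, since the median log2 fold change of all genes was 0.23 in TPM as deposited and 0.002 after trimmed-mean scaling, which rescales each library by a trimmed mean of its log ratios. Over all genes, 181 were called higher and 109 lower in TPM as deposited, and 76 higher and 252 lower after that scaling. The top 100 genes by TPM held 37.6 and 38.1% of the total in shNUP210 and 42.8 and 43.5% in shCon, and the part of this difference in the results was not tested. After trimmed-mean scaling, TGFBI (log2 fold change 0.68, limma adjusted p = 0.0366) and TGFBR2 (1.12, adjusted p = 0.0494) were called, while BAMBI (1.02, adjusted p = 0.0620) and ID3 (0.48, adjusted p = 0.0922) were not. That scaling called 0.75% of all genes higher, and 8 of the 10 genes had both shNUP210 libraries above both shCon libraries, against 26.2% of all genes. All 10 log2 fold changes were above 0 in each of the 20 alternative settings run. Settings that differ only in filter, prior or variance model leave a fold change as it is, so this says little about stability.

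The 4 calls lay close to the threshold. TGFBI lost its call with no filter (limma adjusted p = 0.0785), without the mean-variance trend (0.132) and with the replicate number as a block (0.0533). With the filter lowered to 1 TPM in 2 libraries it was the 1 gene of the 10 still called (adjusted p = 0.0433), and TGFBR2 and ID3 were then at 0.0711 each and BAMBI at 0.0720. When any 1 library was left out and the same genes tested, none of the 10 was called by limma, and 6 to 8 of them were at an unadjusted p under 0.05, as were 16.9 to 19.5% of all genes tested. The lowest adjusted p among those fits was 0.115, for TGFBI without shNUP210 replicate 2.

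**Figure D3:**
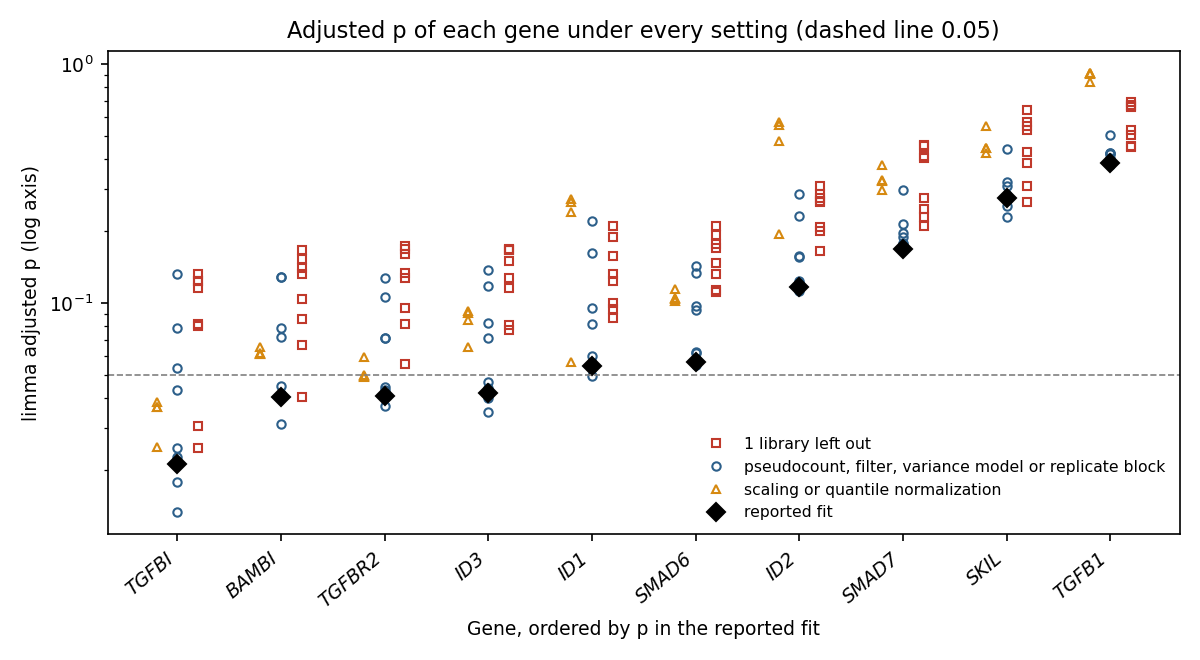
Limma adjusted p (log axis) of each of the 10 genes in the reported fit (diamonds) and in every alternative setting, with the dashed line at 0.05. TGFBI lay under 0.05 in more settings than any other of the 10 genes, and TGFB1, SKIL, SMAD7, ID2 and SMAD6 lay above it in all.

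Promoter sequences are shown for 3 of the genes that rose and for SMAD6, and each holds letters that SMAD proteins are known to bind. Windows of SKIL and SMAD7, which like SMAD6 were not called, also hold such letters and are not shown. TGFBR2, which rose, holds none in its windows. The windows are 300 bases long, mostly upstream of a RefSeq transcription start (GRCh38.p14), and all 10 genes matched, with 13 windows. Capitals mark GTCTAGAC, GTCTG (or CAGAC, its complement read 5′ to 3′) and GGCGCC, searched on both strands. The windows are SMAD6 at chr15:66701986-66702285 (plus strand), BAMBI at chr10:28677271-28677570 (plus strand), TGFBI at chr5:136028738-136029037 (plus strand) and ID3 at chr1:23559452-23559751 (minus strand).
SMAD6: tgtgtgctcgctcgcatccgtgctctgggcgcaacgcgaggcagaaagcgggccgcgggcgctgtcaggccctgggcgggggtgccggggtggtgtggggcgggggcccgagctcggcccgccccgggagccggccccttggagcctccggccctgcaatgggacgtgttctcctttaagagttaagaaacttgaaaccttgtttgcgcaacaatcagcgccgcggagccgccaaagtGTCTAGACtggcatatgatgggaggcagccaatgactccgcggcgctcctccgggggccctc
BAMBI: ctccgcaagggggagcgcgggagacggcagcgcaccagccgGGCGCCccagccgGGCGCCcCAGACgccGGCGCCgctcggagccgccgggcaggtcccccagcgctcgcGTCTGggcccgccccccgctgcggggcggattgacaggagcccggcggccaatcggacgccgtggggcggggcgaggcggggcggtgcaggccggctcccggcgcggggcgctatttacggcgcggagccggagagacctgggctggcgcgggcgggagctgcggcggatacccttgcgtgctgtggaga
TGFBI: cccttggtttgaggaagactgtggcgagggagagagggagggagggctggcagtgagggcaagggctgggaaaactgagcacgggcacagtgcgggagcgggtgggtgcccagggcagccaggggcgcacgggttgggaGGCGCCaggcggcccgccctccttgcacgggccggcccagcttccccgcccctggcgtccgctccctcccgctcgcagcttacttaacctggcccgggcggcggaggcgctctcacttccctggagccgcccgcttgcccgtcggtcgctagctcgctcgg
ID3: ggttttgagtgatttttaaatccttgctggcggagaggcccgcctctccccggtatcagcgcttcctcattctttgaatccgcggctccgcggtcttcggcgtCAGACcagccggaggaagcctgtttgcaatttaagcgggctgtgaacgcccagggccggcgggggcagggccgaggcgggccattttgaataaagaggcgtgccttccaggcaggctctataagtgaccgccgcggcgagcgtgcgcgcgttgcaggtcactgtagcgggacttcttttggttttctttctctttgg

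GTCTAGAC, the palindromic SMAD-binding element, was in the SMAD6 window, beginning 12 bases before the start, and in no other window of the 10 genes. It was in 71 of 35116 RefSeq promoter windows of this length (0.202%). GGCGCC, a GC-rich motif bound by SMAD1 and SMAD5, occurred 3 times in the BAMBI window, beginning 209, 196 and 181 bases before the start. It occurred once each in those of TGFBI and SKIL. At least 1 match was thus in 3 of the 13 windows, against 19.2% of all windows. GTCTG was in 5 of the 13 windows, from BAMBI, ID3, SKIL and SMAD7, and in 45.3% of all windows. GGCGCC followed by GTCT after a gap of 5 bases was in none of the 13 windows and in 0.103% of all. TGFBR2, TGFB1, ID1 and ID2 held none of these motifs in their windows, which do not cover more distant elements. A match describes the letters only, and binding was not measured.

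Other genes of the pathway were read from the same fit in 7 lists by role, 115 genes in all. Of these, 97 were listed and 49 passed the filter, and by limma 7 rose and 0 fell. Among all genes tested, 1.79% were called higher and 2.86% in either direction, and calls by role below are to be read against these shares. After trimmed-mean scaling 5 were called higher and 1, ACVR1, lower, against 76 higher and 252 lower of all 10140 genes tested. The 49 had a median log2 fold change of 0.42, against 0.23 over all genes tested. The calls were 1 ligand (BMP2), 5 TGF-beta targets (TAGLN, CCN2, COL1A2, TPM1 and FN1) and 1 BMP target (GATA2). The lists were drawn up with earlier results known, so they are no independent evidence of a direction. At an unadjusted p under 0.05 there were 17 of the 49, 16 higher and 1 lower, while 24.3% of all genes tested reached that p in either direction and 18.4% with a higher value. By role, 3 of 6 ligands, 7 of 13 TGF-beta targets and 1 of 4 BMP targets reached that p, all with a higher value. These counts, and those given for the other roles below, are to be read against the same 24.3%.

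Among ligands, 6 of 29 genes passed the filter. BMP2, a BMP ligand (ENSG00000125845, chromosome 20, 6767664 to 6780280, plus strand), was at 64.3 and 67.7 TPM in shNUP210 and 34.1 and 34.7 TPM in shCon. The groups were widely separate and BMP2 rose, with a log2 fold change of 0.92 (SE 0.16) and a limma adjusted p of 0.0496 that went above 0.05 in 11 of the 12 alternatives with all libraries. GDF15, a stress-induced ligand, was at 54.3 and 44.2 against 32.5 and 32.1 TPM and GDF11 at 28.9 and 16.6 against 31.2 and 29.4 TPM, and neither passed (limma adjusted p = 0.143 and 0.395). The 5 ligands without a call had log2 fold changes of -0.45 to 0.79.

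Genes of latency and activation, whose products store and release TGF-beta, gave 0 calls by limma of 4 tested, with 2 at an unadjusted p under 0.05 (FURIN and ITGAV). ITGAV encodes an integrin chain that, paired with a beta chain, can pull TGF-beta free of its latent complex. It was at 26.6 and 23.0 TPM in shNUP210 and 8.31 and 5.05 TPM in shCon. Both knockdown libraries were above both controls, and the log2 fold change of 1.78 (95% interval 0.99 to 2.57) missed the threshold (limma adjusted p = 0.0521). The beta chain genes of the list did not pass the filter. ITGB6 was at 0.24 and 0.14 against 0 and 0 TPM, and ITGB8 at 0 and 0 against 0.14 and 0 TPM. FURIN, the protease that cleaves the precursor, was at 443 and 421 against 345 and 304 TPM (adjusted p = 0.0918), and LTBP3 at 44.9 and 82.6 against 38.9 and 53.1 TPM.

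Receptors other than TGFBR2 gave 0 calls by limma of 6 tested (1, ACVR1, at an unadjusted p under 0.05), with a median log2 fold change of 0.19. TGFBR1, the type I partner of TGFBR2, was at 5.54 and 9.20 TPM in shNUP210 and 11.4 and 1.95 TPM in shCon. The control libraries lay on either side of both knockdown libraries. ACVR1, a type I receptor used by BMPs (ENSG00000115170, chromosome 2, 157736444 to 157875862, minus strand), was at 4.58 and 3.23 TPM in shNUP210 and 14.8 and 16.6 TPM in shCon. It was the only receptor tested with both knockdown libraries below both controls, which was so for 1454 of the 10140 genes tested. Its log2 fold change of -1.78 (95% interval -2.62 to -0.94) missed the threshold in TPM as deposited (limma adjusted p = 0.0589) and passed it after trimmed-mean scaling (adjusted p = 0.0457). ACVR1B (14.4 and 17.4 against 21.4 and 13.7 TPM) and NEO1 (9.08 and 6.27 against 11.3 and 5.49 TPM) overlapped between groups.

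The SMADs that carry the signal gave 0 calls by limma of 5 tested, and 1, SMAD4, was at an unadjusted p under 0.05. SMAD4, the shared partner, was at 66.8 and 52.7 TPM in shNUP210 and 39.2 and 42.9 TPM in shCon (log2 fold change 0.52, 95% interval 0.06 to 0.98, limma adjusted p = 0.168). SMAD3 was at 13.5 and 13.3 against 8.73 and 12.7 TPM. SMAD5 was at 12.3 and 15.7 against 20.3 and 10.5 TPM, with the controls on either side of the knockdown libraries.

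Inhibitors outside the 10 genes gave 0 calls by limma of 12 tested (2, TGIF1 and FSTL3, at an unadjusted p under 0.05), with a median log2 fold change of 0.20, close to that of all genes. SKI, the relative of SKIL, was at 30.7 and 28.4 TPM in shNUP210 and 36.7 and 37.8 TPM in shCon (log2 fold change -0.33, 95% interval -0.77 to 0.12, limma adjusted p = 0.312), opposite in sign to SKIL. FKBP1A, which keeps type I receptors inactive, was at 175 and 191 against 211 and 193 TPM, and FST, a trap for activins, at 56.1 and 67.4 against 81.6 and 68.3 TPM. TGIF1, a co-repressor of SMADs, was at 42.7 and 38.9 against 22.8 and 29.95 TPM (adjusted p = 0.161).

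Of 13 TGF-beta targets tested, 5 rose and 0 fell, with a median log2 fold change of 0.76. TAGLN, an actin-binding protein gene of smooth muscle, had the highest change of them, from 37.5 and 50.5 TPM to 444 and 455 TPM (log2 fold change 3.34, SE 0.17, limma adjusted p = 0.00285). It was called in all 4 fits that left out 1 library. CCN2, a matricellular growth regulator, rose from 43.6 and 38.9 TPM to 102 and 98.3 TPM (2.43 times, adjusted p = 0.0247), and COL1A2, a chain of type I collagen, from 16.4 and 18.1 TPM to 48.8 and 45.2 TPM (2.73 times, adjusted p = 0.0334). TPM1, encoding a tropomyosin, rose 2.18 times (adjusted p = 0.0352) and FN1, encoding fibronectin, 1.70 times (adjusted p = 0.0340, and 0.0639 after trimmed-mean scaling). JUNB was at 26.1 and 29.6 against 21.8 and 23.6 TPM (adjusted p = 0.435). TAGLN shares 446 exon bases with PCSK7, CCN2 195 with RP11-69I8.3 and TPM1 2070 with TPM1-AS, all on the opposite strand, so reads could be split between them. PCSK7 was itself at 117 and 140 TPM in shNUP210 and 22.1 and 19.2 TPM in shCon, and TPM1-AS at 22.2 and 21.1 against 5.18 and 7.35 TPM.

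Of 4 BMP targets tested outside the ID1 to ID3 and SMAD6 genes, 1 rose. GATA2, encoding a zinc finger transcription factor (ENSG00000179348, chromosome 3, 128479427 to 128493185, minus strand), rose from 11.2 and 9.91 TPM to 36.6 and 36.4 TPM (3.45 times, log2 fold change 1.70, SE 0.22, limma adjusted p = 0.0296). HAMP, encoding hepcidin, the iron hormone that BMP signalling induces in hepatocytes, was at 65.0 and 51.0 TPM in shNUP210 and 67.0 and 61.3 TPM in shCon. The groups overlapped, and the log2 fold change was -0.15 (95% interval -0.60 to 0.29, adjusted p = 0.630). ID4, the fourth ID gene, was at 15.3 and 10.2 against 12.8 and 10.9 TPM (log2 fold change 0.08, adjusted p = 0.906), overlapping between groups, and MSX1 at 2.58 and 7.02 against 10.6 and 6.92 TPM.

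**Figure D4:**
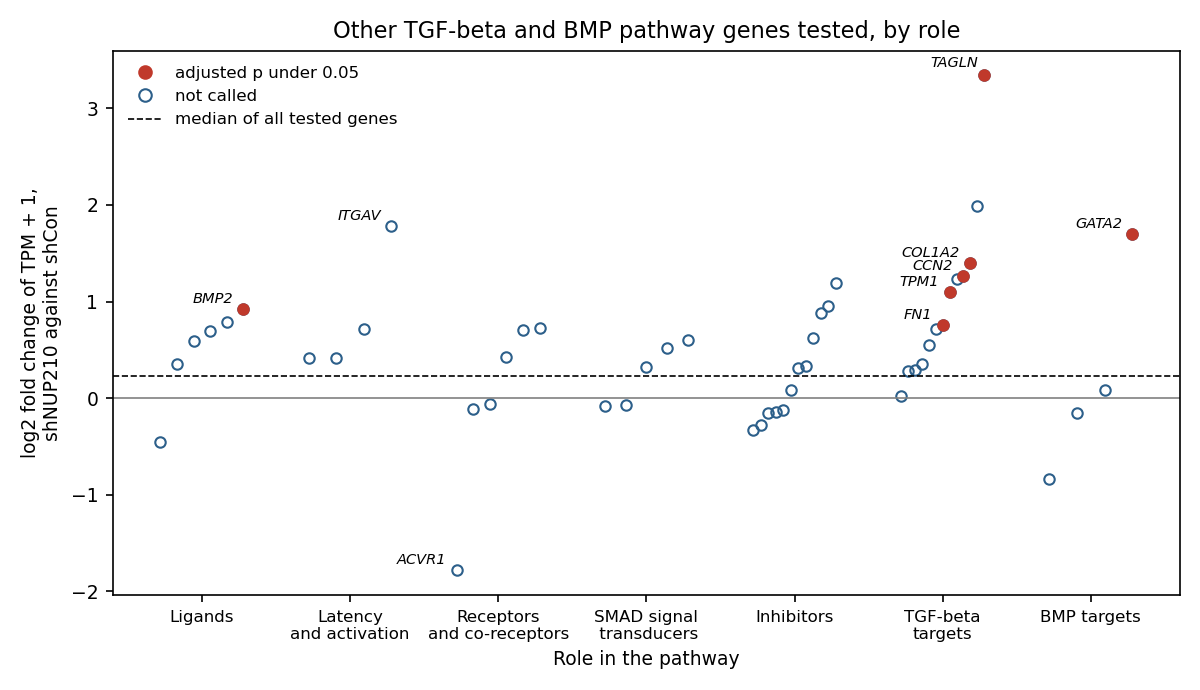
Log2 fold change of TPM + 1, shNUP210 against shCon, of the pathway genes tested outside the 10, in 7 role lists (a gene may be in more than 1). Filled points passed the adjusted p of 0.05, and the dashed line is the median of all genes tested, 0.23. Of the 7 genes called, 5 are TGF-beta targets, and ACVR1 has the lowest value at -1.78.

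The 3 genes with the profile nearest to that of TGFBI over the 4 libraries were LASP1, BMP2 and MIA2, by Euclidean distance between mean-centred log2(TPM + 1) values (0.041, 0.048 and 0.055). LASP1, encoding an actin-binding adaptor, was at 295 and 290 TPM in shNUP210 and 151 and 152 TPM in shCon, almost the levels of TGFBI. With 4 libraries in 2 groups, such a distance mostly reflects the same size of group difference.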

How the data were processed

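Total RNA of Huh7 cells was isolated with Trizol and sequencing libraries were built with the Illumina TruSeq RNA kit, per the labels' protocols. The authors deposited 1 table of TPM values per library. The unit was read from column totals of 999992.7 to 999997.8. Trimmomatic, STAR, RSEM and DESeq with hg38 are named, per the submitters' processing notes, without versions or roles. No annotation release is named.

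Limma 3.58.1 (R 4.3.3) was fitted on log2(TPM + 1), which understates the changes of low genes, with all 4 libraries and no covariate, and tested on simulated data. The filter of 5 TPM in 2 libraries follows an earlier analysis of these tables, where it was set with the numbers of calls in view. The 10 genes and the pathway lists were chosen with earlier results of these data known. Named genes are the 10, called list genes and up to 3 more per list by mean TPM. The 3 nearest profiles to the member with the smallest p are named as well. SKI, TGFBR1, FSTL3, ITGB6, ITGB8 and the single marker genes in the report were added after their values were seen. So were TGFB2, TGFB3 and LTBP1 in the closing section. Other pathway genes were matched by gene identifier to current symbols. Gene positions and exon overlaps with other listed genes are from GENCODE release 29 (GRCh38), and promoter windows from RefSeq. Alternatives were 2 pseudocounts, 3 filters, 4 scalings, 2 variance models, a replicate block and each library left out. A permutation test over 2 against 2 libraries cannot pass 0.05 and was not used. One gene that the naming rule gives is not reported here.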

Additional observations from a re-analysis of the deposited data

How the results depend on the processing

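Counts of calls by limma moved with the settings. Over all genes there were 290 calls, 15 when no genes were filtered out, 57 when 1 TPM in 2 libraries sufficed, 0 with a constant prior variance, that is without the trend (2290 at an unadjusted p under 0.05), 63 with the replicate block and 4 to 27 when 1 library was left out. With the filter reapplied to the remaining libraries, an alternative chosen after seeing the data, there were 218 and 237 without shNUP210 replicate 1 or 2, and 29 without either shCon replicate. Of the 10 genes, 4 were called, 2 after trimmed-mean, median-ratio or upper-quartile scaling, 1 after quantile normalization, 1 with the filter of 1 TPM in 2 libraries, and 0 with no filter, without the trend or with the replicate block (8, 7 and 8 at an unadjusted p under 0.05, against 14.7, 22.6 and 23.1% of all genes). ID1 was called in 1 setting, the filter of 1 TPM in all 4 libraries (adjusted p = 0.0493). Leaving out 1 library gave 0 of the 10, and 0 to 2 with the filter reapplied. Of the other pathway genes, 7 were called, 1 with no filter, with the filter of 1 TPM in 2 libraries or with the replicate block, and 0 without the trend (17 at an unadjusted p under 0.05). Leaving out 1 library gave 1, and with the filter reapplied 2 and 5 without shNUP210 replicate 1 or 2, and 1 without either shCon replicate. The NUP210 log2 fold change of -1.49 was the same with no filter, with the filter of 1 TPM in 2 libraries, without the trend and with the replicate block, where its adjusted p was 0.129, 0.0781, 0.0991 and 0.0820, and -1.62 to -1.37 when 1 library was left out, with adjusted p 0.162 to 0.167. With the filter reapplied it was -1.51, -1.48, -1.37 and -1.62, with adjusted p 0.0599 to 0.138. The cause of these shifts was not tested. In these settings none of the 10 genes, NUP210 or the 7 called pathway genes changed sign. The groups share replicate numbers in their titles, but the labels state no pairing. Same-numbered libraries did not deviate together (correlation across genes 0.023). Scatter between replicates could hide a shared deviation, so this value does not exclude that they were prepared together. Depth is unknown, which limits SKIL and other genes near 5 TPM most.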

Other observations

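The other TGF-beta ligand genes were too low for the filter of 5 TPM in 2 libraries. TGFB2 was at 5.74 and 4.70 TPM in shNUP210 and 0.73 and 0 TPM in shCon, and TGFB3 at 4.47 and 4.93 TPM in shNUP210 and 0.19 and 1.81 TPM in shCon. Both knockdown libraries lay above both controls in either gene. With the filter of 1 TPM in 2 libraries, their log2 fold changes were 2.24 and 1.64 and neither passed (limma adjusted p = 0.109 and 0.201). LTBP1, a latent TGF-beta binding protein gene, was at 1.95 and 10.1 TPM in shNUP210 and 0.99 and 0.10 TPM in shCon, with the knockdown libraries far apart. These genes were picked after their values were seen.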
